A study of Mus musculus with 12 samples.

Results

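Soleus was compared with gastrocnemius in control mice, 3 RNA sequencing libraries against 3, which are 6 of the 12 libraries of a study of the demethylase PHF2 in skeletal muscle. All 6 came from 4-week-old male C57BL/6 mice labelled Phf2 flox/flox;Acta1 Cre-, so both muscles carried floxed Phf2 alleles and no Cre. The remaining 6 libraries were from soleus and gastrocnemius of Phf2 flox/flox;Acta1 Cre+ mice, in which the Acta1 promoter drives Cre in skeletal muscle fibres. Muscles were flash frozen after collection. The labels do not say whether the 3 samples of a group were separate mice, nor whether equally numbered soleus and gastrocnemius samples came from 1 mouse, so the p-values describe how these samples vary and may leave out variation between mice. Expression is in TPM, a length-corrected share of transcripts scaled to the same total in each library, and genes averaging 1 TPM or more across the 6 control libraries were compared. These were 12048 of the 34866 genes listed, 11667 of them protein-coding.

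Skeletal muscle fibres are slow or fast according to the myosin heavy chain they carry, and the slow fibres rely on mitochondrial respiration while the fastest rely on glycolysis. In the mouse, soleus is a postural muscle of slow and fast oxidative fibres, and gastrocnemius is a propulsive muscle made largely of fast fibres. Each fibre type has its own set of myosin light chains, troponins, tropomyosins, calcium pumps and calcium buffers. Motor nerve activity maintains these sets, partly through calcineurin and NFAT in slow fibres.

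Fibre-type genes matched the muscle labels. Of all TPM, the 16 listed genes of slow contraction and calcium handling took 4.72 ± 0.538% in soleus and 0.192 ± 0.0164% in gastrocnemius (SD, n = 3 each). The 18 listed fast genes took 7.22 ± 0.453% in soleus and 19.7 ± 0.857% in gastrocnemius. Mitochondrially encoded transcripts took 27.1 ± 2.55% in soleus and 23.3 ± 1.11% in gastrocnemius. Each of these shares had an exact two-sided permutation p of 0.1, the smallest that 3 against 3 allows. TPM is scaled to 1000000 within every library, the reads behind it are not known, and each muscle was deposited as a table of its own. Any difference in handling between the tables cannot be told apart from the muscle. Processed pseudogenes, copies of spliced mRNAs, were listed above 0 TPM in 1876, 1194 and 1731 cases in soleus Ctrl 1 to 3 and 1242, 1134 and 1293 in gastrocnemius Ctrl 1 to 3. Soleus Ctrl 2 was close to the gastrocnemius libraries in this respect, and also had 0 TPM of the pseudogene Gm12338, which was at 187 and 74.5 TPM in soleus Ctrl 1 and 3 and at 0 in every gastrocnemius control. Counts that move by over 1.5 times when soleus Ctrl 2 alone is set against gastrocnemius are given beside the result. A limma fit with the processed pseudogene count as a covariate called 2243 genes higher and 934 lower, against 3782 and 1232 without it. With this covariate, higher adipocyte markers went from 5 to 1 and higher cytosolic ribosomal genes from 17 to 5, while all 16 slow fibre genes stayed higher. The part of these library differences in the results was otherwise not tested.

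In the fit by limma on log2(TPM + 1), 3782 of 12048 genes were higher in soleus (31.4%) and 1232 were lower (10.2%) at an adjusted p under 0.05, together 5014 genes (41.6%). Of these, 666 and 310 differed by more than 2-fold, and 124 and 67 by more than 4-fold. In 4975 of the 5014 called genes the soleus and gastrocnemius libraries did not overlap. Among all genes tested, soleus lay wholly above gastrocnemius in 39.8% and wholly below it in 14.4%. The median gene stood 0.186 higher in soleus on the log2 scale, while the 10 most abundant nuclear genes of each library took 15.5 ± 0.815% in soleus and 26.7 ± 0.988% in gastrocnemius. With median-ratio scaling, which sets the typical gene equal between libraries, that median was 0.009, and 2340 genes were higher (19.5%) and 2251 lower (18.7%). Soleus Ctrl 2 alone against the 3 gastrocnemius libraries gave 1745 higher and 883 lower genes. Values below are soleus minus gastrocnemius on the log2(TPM + 1) scale, which understates changes of genes with low TPM. A small positive value is to be read against the median of 0.186. Counts of each gene list in the main fit are to be read against the 31.4% of all genes higher and 10.2% lower. List counts with median-ratio scaling are to be read against its own 19.5% higher and 18.7% lower. Under any other setting, including soleus Ctrl 2 alone, they are to be read against the genes called in that same fit.

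The myosin heavy chain genes differed between the muscles to unequal degrees, widely for Myh4 and Myh7 and least for Myh1. Myh7, the slow type I chain (chromosome 14, 54970684 to 54994626, minus strand, mm10), was at 4503, 4568 and 5573 TPM in soleus, against 40.8, 67.3 and 70.4 TPM in gastrocnemius. Every soleus library was far above every gastrocnemius library, with a ratio of the means of 82.0 (log2 fold change 6.37, SE 0.204, adjusted p = 1.90e-06 by limma). Myh4, the fastest type IIb chain (chromosome 11, 67238029 to 67260446, plus strand), was at 42.3, 32.0 and 78.5 TPM in soleus, against 10774, 9589.9 and 10366 TPM in gastrocnemius. This was the lowest fold change of any named gene (log2 fold change -7.72, SE 0.283, adjusted p = 2.86e-06). Myh2, the oxidative type IIa chain, was at 3007, 2537 and 2505 TPM in soleus, against 329.6, 391 and 309 TPM in gastrocnemius, and was higher in soleus (log2 fold change 2.96, SE 0.117, adjusted p = 4.08e-06). Myh1, the type IIx chain, was at 1633, 932 and 1911 TPM in soleus, against 669, 863 and 654 TPM in gastrocnemius. The Myh1 groups did not overlap, but the gap was small (log2 fold change 0.98, SE 0.256, adjusted p = 0.0180), and the adjusted p was 0.0554 to 0.0605 without soleus Ctrl 1 or 3 or without gastrocnemius Ctrl 1 or 3. With soleus Ctrl 2 alone its log2 fold change was 0.37 (adjusted p = 0.203).

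Because TPM is corrected for transcript length, the 4 adult chains can be set beside each other within a library. As a share of their summed TPM, Myh7 made up 49.03, 56.6 and 55.4% in soleus, against 0.346, 0.617 and 0.617% in gastrocnemius. The share of Myh2 was 32.7, 31.4 and 24.9% in soleus, against 2.79, 3.59 and 2.71% in gastrocnemius. For Myh1 the share was 17.8, 11.5 and 18.98% in soleus, against 5.66, 7.91 and 5.73% in gastrocnemius, and for Myh4 it was 0.461, 0.397 and 0.779% in soleus, against 91.2, 87.9 and 90.9% in gastrocnemius. In soleus the order was thus Myh7, Myh2, Myh1 and Myh4, with Myh7 above Myh2 in each library. In gastrocnemius the order was Myh4, Myh1, Myh2 and Myh7 in each library. For every chain the groups did not overlap, and the exact permutation p was 0.1. Stretches of these genes are nearly identical, and how reads that fit several of them were assigned is not given in the sources used here, so small shares are uncertain.

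**Figure D1:**
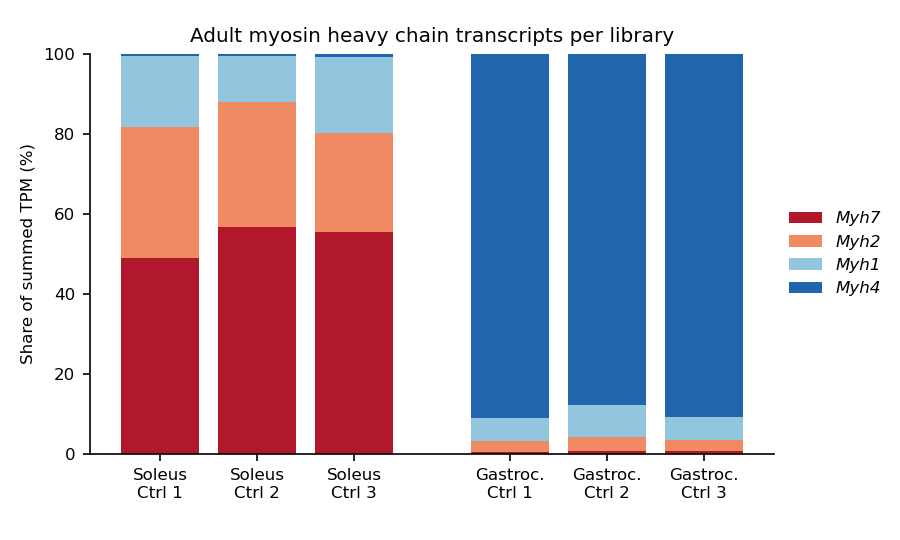
Stacked bars show the share (%) of Myh7, Myh2, Myh1 and Myh4 in their summed TPM, 1 bar for each control library, soleus on the left and gastrocnemius on the right. Myh7 holds 49.03 to 56.6% in soleus and under 1% in gastrocnemius, where Myh4 holds 87.9 to 91.2%.

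The promoters of Myh7 and Tnnc1 are shown for slow genes and those of Myh4 and Mybph for fast genes with wide differences. Each is the RefSeq window of 300 bases on GRCm38.p6, the assembly of mm10, from 250 bases before the transcription start to 50 after it. The windows are Myh7 at chr14:54994577-54994876, minus strand, Tnnc1 at chr14:31208062-31208361, plus strand, Myh4 at chr11:67237562-67237861, plus strand, and Mybph at chr1:134193198-134193497, plus strand. Capitals mark E-boxes (CANNTG), the motif of myogenic bHLH factors, and MCAT elements (CATTCC), the motif of TEAD factors, on either strand. The RefSeq start of Myh4 lies upstream of the start that the gene annotation gives above.
Myh7 promoter: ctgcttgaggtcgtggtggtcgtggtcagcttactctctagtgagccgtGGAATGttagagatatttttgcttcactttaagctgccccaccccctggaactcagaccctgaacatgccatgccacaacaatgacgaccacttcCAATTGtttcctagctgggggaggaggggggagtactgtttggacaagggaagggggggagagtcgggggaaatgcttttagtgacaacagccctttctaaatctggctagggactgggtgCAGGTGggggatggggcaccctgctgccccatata
Tnnc1 promoter: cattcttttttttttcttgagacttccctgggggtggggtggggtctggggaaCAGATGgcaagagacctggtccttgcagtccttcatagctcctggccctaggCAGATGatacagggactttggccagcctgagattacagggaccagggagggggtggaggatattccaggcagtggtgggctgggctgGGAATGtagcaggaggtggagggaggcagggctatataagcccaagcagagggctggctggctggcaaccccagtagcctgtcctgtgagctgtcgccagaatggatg
Myh4 promoter: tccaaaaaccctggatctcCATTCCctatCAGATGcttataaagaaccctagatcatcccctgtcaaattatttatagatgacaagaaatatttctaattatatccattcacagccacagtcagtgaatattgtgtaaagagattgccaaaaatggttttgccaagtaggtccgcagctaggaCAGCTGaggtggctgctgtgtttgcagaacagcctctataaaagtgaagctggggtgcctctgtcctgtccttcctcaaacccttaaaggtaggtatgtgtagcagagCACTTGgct
Mybph promoter: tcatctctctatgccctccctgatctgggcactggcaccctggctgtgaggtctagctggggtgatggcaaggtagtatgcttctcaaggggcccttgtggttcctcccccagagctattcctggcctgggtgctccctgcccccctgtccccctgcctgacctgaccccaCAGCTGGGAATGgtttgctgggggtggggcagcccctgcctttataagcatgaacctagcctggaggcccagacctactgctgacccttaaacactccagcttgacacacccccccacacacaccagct
Myh7 and Tnnc1 each held 2 E-boxes and 1 MCAT element, Myh4 held 3 and 1, and Mybph held 1 and 1. An E-box was present in 74.99% of 27025 genes with a RefSeq window and in 67.3% of the 9174 tested genes with one. It was present in all 14 slow genes and in 10 of 12 fast genes that had a window. An MCAT element was present in 16.6% of the 27025 genes, in 3 of the 14 slow genes and in 5 of the 12 fast genes. A gene with several windows was counted once if any of them held the motif, and a match describes letters, not binding.

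All 16 slow genes were higher in soleus, with a median log2 fold change of 5.03, and remained so under each alternative scaling and with soleus Ctrl 2 alone. Of the 18 fast genes, 16 were lower, with a median of -1.43, and the other two were Myh2 and Myh1. Tnnc1, the slow troponin C that binds calcium on the thin filament, was at 3780.0, 4132 and 4829 TPM in soleus, against 39.9, 77.1 and 78.9 TPM in gastrocnemius. Its fast counterpart Tnnc2 was at 13247, 11418 and 13225 TPM in soleus, against 18960.5, 18300.5 and 22859 TPM in gastrocnemius. The slow gene thus differed 65.1-fold between the means, and the fast gene stayed abundant in soleus. Tnnt1, the slow troponin T, was at 5718, 6217 and 6826 TPM in soleus, against 84.1, 118 and 130.4 TPM in gastrocnemius, and Tnni1, the slow inhibitory troponin I, at 1621, 2383 and 2446 TPM in soleus, against 24.8, 50.3 and 47.7 TPM in gastrocnemius. The slow members reached log2 fold changes of 5.83 for Tnnt1 and 5.72 for Tnni1 (adjusted p = 1.12e-06 and 9.55e-06 by limma). Their fast partners Tnnt3 and Tnni2 were lower by less, at -0.99 and -0.77 (adjusted p = 0.000607 and 0.000448). These fast troponin calls depended on scaling: with quantile normalization Tnnc2 stood at 0.03 (adjusted p = 0.792), Tnni2 at -0.16 and Tnnt3 at -0.21, none past the test.

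The same asymmetry appeared in the myosin light chains and tropomyosins. Myl3, the slow essential light chain, was at 5826, 7965 and 8177 TPM in soleus, against 84.6, 121 and 109 TPM in gastrocnemius. Myl2, the slow regulatory light chain, was at 6665, 9242 and 9681 TPM in soleus, against 159, 230.2 and 238 TPM in gastrocnemius. Every gastrocnemius library was far below every soleus library for both (6.11 for Myl3 and 5.35 for Myl2). The fast chains Myl1 and Mylpf remained among the abundant transcripts of soleus, at 8886 ± 903 TPM in soleus, against 29997 ± 763 TPM in gastrocnemius for Myl1 and 8857 ± 1045 TPM in soleus, against 30362 ± 2593 TPM in gastrocnemius for Mylpf (SD, n = 3 each). Tpm3, which yields slow tropomyosin, was at 4826, 4822 and 5792 TPM in soleus, against 85.4, 133 and 120.3 TPM in gastrocnemius. As a share of Tpm3 plus Tpm1 it made up 37.7 ± 2.13% in soleus and 0.490 ± 0.110% in gastrocnemius. The slow share was 20.4 ± 3.66% in soleus and 0.287 ± 0.101% in gastrocnemius for troponin I, 25.2 ± 2.58% in soleus and 0.324 ± 0.106% in gastrocnemius for troponin C and 32.0 ± 3.36% in soleus and 0.418 ± 0.0807% in gastrocnemius for troponin T (SD, n = 3, exact permutation p = 0.1 each). Slow members thus made up 16.2 to 40.1% of each pair in the soleus libraries and under 1% in the gastrocnemius libraries.

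**Figure D2:**
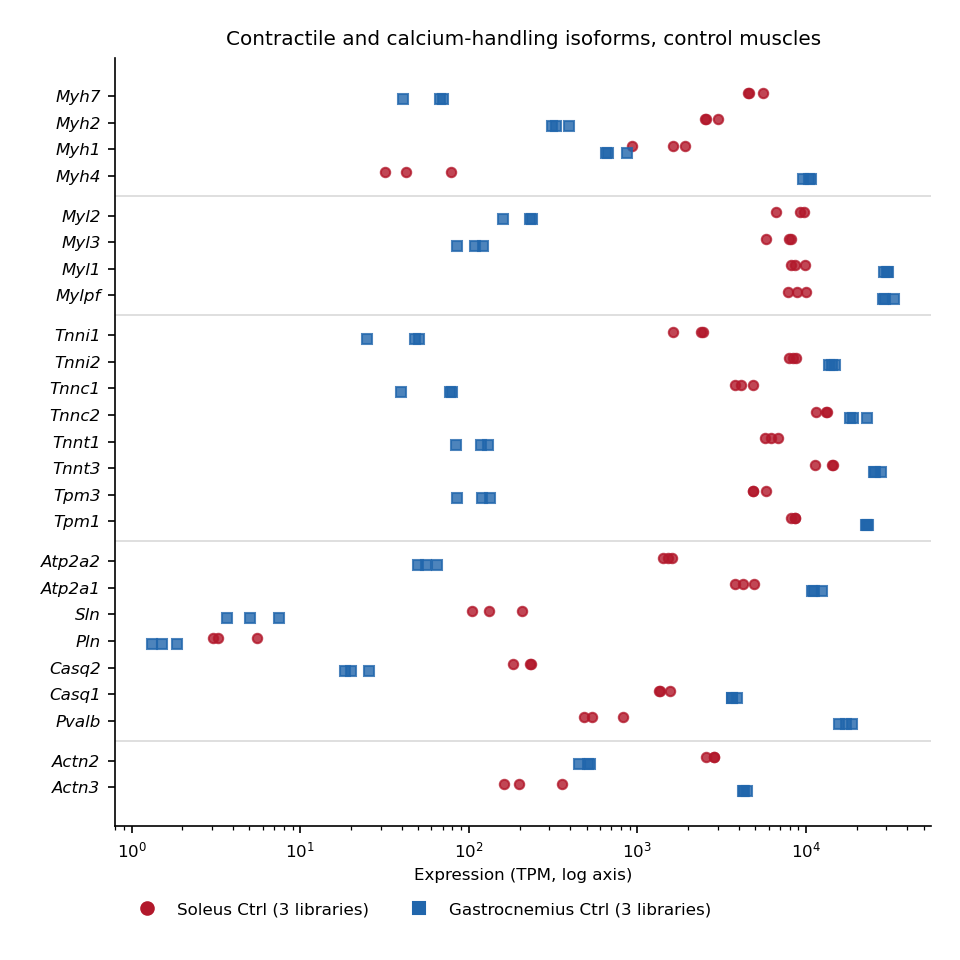
Points are the TPM (log axis) of contractile and calcium-handling genes in each control library, circles for soleus and squares for gastrocnemius, with blocks for myosin heavy chains, light chains, thin filament, calcium handling and alpha-actinins. Slow genes such as Myh7 and Tnnc1 differ by far more between the muscles than fast genes such as Tnnc2 and Tnni2, which stay at 7939 TPM or more in soleus.

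Calcium pumps and buffers followed the fibre-type genes. Atp2a2, the slow SERCA2 pump of the sarcoplasmic reticulum, was at 1524, 1412 and 1594 TPM in soleus, against 50.1, 64.4 and 55.4 TPM in gastrocnemius, the fast pump Atp2a1 at 4209, 3781 and 4912 TPM in soleus, against 11149, 12427 and 10838 TPM in gastrocnemius. Of the pair, SERCA2 made up 26.1 ± 1.41% in soleus and 0.491 ± 0.0376% in gastrocnemius, so Atp2a1 was the more abundant pump transcript in both muscles. Sln, whose peptide sarcolipin inhibits SERCA, was at 104, 132 and 206 TPM in soleus, against 3.66, 7.49 and 5.02 TPM in gastrocnemius, and Pln, the related inhibitor phospholamban, at 3.27, 5.57 and 3.04 TPM in soleus, against 1.86, 1.51 and 1.33 TPM in gastrocnemius. Both inhibitors were higher in soleus (4.53 for Sln and 0.92 for Pln, adjusted p = 3.28e-05 and 0.00843 by limma), and Pln was scarce in both muscles. Casq2, the cardiac and slow calsequestrin that stores calcium, was at 231, 183 and 234 TPM in soleus, against 18.5, 20.1 and 25.6 TPM in gastrocnemius. Pvalb, the soluble calcium buffer parvalbumin of fast fibres, was at 539.8, 480.4 and 825 TPM in soleus, against 17278, 15637 and 18756 TPM in gastrocnemius, a fold of the means of 0.0357 (log2 fold change -4.84, SE 0.194, adjusted p = 4.34e-06). No soleus library overlapped a gastrocnemius library for any of these genes.

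Of 27 tested genes of excitation-contraction coupling, 4 were higher and 17 lower in soleus, with a median of -0.48. Ryr1, the calcium release channel, was at 217, 195 and 183 TPM in soleus, against 277, 263 and 265 TPM in gastrocnemius (log2 fold change -0.44, SE 0.0847, adjusted p = 0.00533). The list's larger differences were in Cacng1, a subunit of the voltage sensor, at -1.68, and Camk2a, a calmodulin kinase, at -2.06. The higher genes were S100a1, a calcium-binding regulator of release, at 221, 224 and 225 TPM in soleus, against 114, 114 and 107 TPM in gastrocnemius; Stim1, the calcium sensor of the reticulum, at 0.97; Camk2b at 0.85; and Fkbp1a at 0.28. Fkbp1a was not past the test under median-ratio scaling (0.0767, adjusted p = 0.394), nor without soleus Ctrl 1 or 3 or any 1 gastrocnemius library (adjusted p = 0.0513 to 0.0741).

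Of 25 membrane channels and pumps, 10 were higher and 11 lower in soleus. Atp1b1, the beta 1 subunit of the sodium pump, was at 386, 349 and 385 TPM in soleus, against 72.8, 81.4 and 58.4 TPM in gastrocnemius, and Atp1b2, the beta 2 subunit, at 38.9, 40.4 and 68.8 TPM in soleus, against 224, 258 and 223 TPM in gastrocnemius. The subunits thus went opposite ways, at 2.39 and -2.28 (adjusted p = 1.42e-05 and 0.000164 by limma). Channels that set fibre excitability were lower in soleus: Scn4a, the muscle sodium channel, at -0.997 and Clcn1, the muscle chloride channel, at -1.04 (adjusted p = 0.00343 and 0.000159).

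Of 36 genes of the sarcomere scaffold, Z-disc and M-band, 21 were higher and 7 lower in soleus (median 0.61). Myom3, an M-band protein of slower fibres, was at 239.5, 252 and 219 TPM in soleus, against 15.4, 16.7 and 15.8 TPM in gastrocnemius, and Myom2, an M-band protein of fast fibres, at 139.5, 153 and 174 TPM in soleus, against 567, 575 and 610.4 TPM in gastrocnemius. These neighbours of the M-band moved in opposite directions (3.81 and -1.91). Ankrd2, a stretch-responsive ankyrin repeat protein, was at 1254, 1311 and 1069.5 TPM in soleus, against 77.5, 94.5 and 88.0 TPM in gastrocnemius, and Csrp3, the Z-disc LIM protein, at 1586, 1488 and 820.1 TPM in soleus, against 84.5, 84.9 and 82.6 TPM in gastrocnemius. Soleus Ctrl 3 was the lowest of the soleus libraries for both, still above all of gastrocnemius. Lmod2, which elongates thin filaments, and Pdlim1 were also among the higher genes (3.34 and 3.05), as was Flnc, the muscle filamin, at 1.89. Ttn, the giant spring titin, was lower at 109, 113 and 110.3 TPM in soleus, against 166, 158 and 163 TPM in gastrocnemius (log2 fold change -0.55, SE 0.0683, adjusted p = 0.000735). Actn3, the alpha-actinin of fast fibres, was at 163, 199 and 358 TPM in soleus, against 4227, 4303 and 4459 TPM in gastrocnemius, and Actn2, present in all fibres, at 2839, 2860.2 and 2549.6 TPM in soleus, against 508, 525 and 452 TPM in gastrocnemius. Of the pair, Actn2 made up 91.9 ± 3.71% in soleus and 10.3 ± 0.923% in gastrocnemius (SD, n = 3, exact permutation p = 0.1).

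Of 35 transcription factors and calcineurin genes, 11 were higher and 10 lower in soleus. The share higher was that of all genes, 31.4%, and the share lower was above the 10.2% of all genes. Sox6, a repressor of slow genes in fast fibres, was at 6.67, 7.96 and 6.38 TPM in soleus, against 21.9, 20.3 and 21.8 TPM in gastrocnemius, and Eya4, a cofactor of homeobox factors, at 2.77, 2.60 and 2.70 TPM in soleus, against 11.6, 10.6 and 12.2 TPM in gastrocnemius. Maf, a large MAF factor that activates Myh4 in mice, was at 5.54, 5.49 and 10.7 TPM in soleus, against 66.4, 67.0 and 51.0 TPM in gastrocnemius. All of these were lower in soleus without overlap (-1.48, -1.75 and -2.97 in that order, adjusted p = 4.85e-05, 1.65e-05 and 8.79e-05 by limma). Vgll2, a TEAD cofactor, was at 214, 291 and 274 TPM in soleus, against 37.7, 45.2 and 36.9 TPM in gastrocnemius, and Rcan1, a calcineurin inhibitor that is itself an NFAT target, at 339, 488 and 438 TPM in soleus, against 57.2, 66.8 and 60.1 TPM in gastrocnemius. Prox1, a homeobox factor of slow fibres, was higher at 1.33, while Ppp3ca, the catalytic subunit of calcineurin, was lower at -0.79 (adjusted p = 0.000232 and 0.000221).

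Of 23 regulators of oxidative metabolism, 8 were higher and 7 lower in soleus. The share higher was close to the 31.4% of all genes, and the share lower was above their 10.2%. Soleus Ctrl 2 alone gave 6 higher and 4 lower. Ppargc1a, the coactivator PGC-1 alpha that drives mitochondrial biogenesis, was at 28.0, 126 and 59.0 TPM in soleus, against 9.95, 13.7 and 10.2 TPM in gastrocnemius (log2 fold change 2.31, SE 0.464, adjusted p = 0.00608). Its partners in the estrogen-related receptor family were higher too: Esrrb at 8.07, 7.91 and 8.198 TPM in soleus, against 0.680, 0.866 and 0.640 TPM in gastrocnemius, and Esrra at 1.09. Perm1, a muscle regulator induced by PGC-1 alpha, stood at 1.72. The AMPK subunits ran the other way. Prkag3, the gamma 3 subunit of fast fibres, was at 4.93, 4.43 and 6.27 TPM in soleus, against 132, 133 and 111 TPM in gastrocnemius, and Prkab2, the beta 2 subunit, at 13.7, 12.3 and 12.9 TPM in soleus, against 100.2, 99.4 and 97.5 TPM in gastrocnemius. Gastrocnemius held over 7-fold more of each (-4.35 and -2.84, adjusted p = 1.46e-06 and 1.12e-06).

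Nuclear genes of the respiratory chain were higher in soleus in 57 of 65 cases and lower in none, by modest amounts (median 0.52). The background of genes higher in soleus is 31.4%, and with median-ratio scaling 34 of the 65 were higher, against 19.5% of all genes. Cox8a, a subunit of cytochrome oxidase, was at 205, 221 and 219.7 TPM in soleus, against 71.0, 68.9 and 81.4 TPM in gastrocnemius, and Ndufb3, a subunit of complex I, at 329, 299 and 329 TPM in soleus, against 109.8, 106 and 119 TPM in gastrocnemius. These were the larger differences of the list (1.54 and 1.51). Ndufv1, a catalytic subunit of complex I, was at 415, 431 and 450.3 TPM in soleus, against 222, 233 and 235 TPM in gastrocnemius (log2 fold change 0.91, SE 0.0718, adjusted p = 8.77e-05). Of the 13 mitochondrially encoded mRNAs, mt-Co1 and mt-Cytb were higher, at 0.49 and 0.35 (adjusted p = 0.0126 and 0.0331), and none with median-ratio scaling or with soleus Ctrl 2 alone. Without soleus Ctrl 3 or any 1 gastrocnemius library, mt-Cytb had an adjusted p of 0.0517 to 0.102. Quantile normalization, in contrast, gave 5 of the 13 higher. There mt-Cytb was at 0.89 (adjusted p = 0.000328 by limma), and mt-Co1 was not past the test (0.49, adjusted p = 0.0852). Genes of the mitochondrial ribosome were higher in 34 of 64 cases and lower in none, against 17 higher and 1 lower with median-ratio scaling and 21 higher with soleus Ctrl 2 alone.

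Fatty acid genes had the highest median of the metabolic groups, with 37 of 41 higher and 2 lower in soleus (median 1.08). Fabp3, the fatty acid carrier of heart and oxidative muscle, was at 3143, 2764 and 2462 TPM in soleus, against 627, 471 and 511 TPM in gastrocnemius. Plin5, a coat protein of lipid droplets at mitochondria, was at 45.9, 38.3 and 36.0 TPM in soleus, against 10.1, 8.97 and 8.21 TPM in gastrocnemius. Cd36, which takes fatty acids into the fibre, was at 1.36, Cpt1b, which passes them to the mitochondrion, at 1.24, and the oxidation enzymes Acadl and Acaa2 at 1.38 and 1.39 (adjusted p = 8.81e-05, 7.86e-05, 2.16e-05 and 2.10e-05 by limma). The lower genes were Acsl6, an acyl-CoA synthetase, at 14.9, 13.5 and 15.1 TPM in soleus, against 32.2, 26.0 and 30.2 TPM in gastrocnemius, and Ucp3, the muscle uncoupling protein, at 36.8, 39.7 and 35.1 TPM in soleus, against 47.0, 87.5 and 94.99 TPM in gastrocnemius. Ucp3 was at -0.96 (adjusted p = 0.0159) and was not past the test without soleus Ctrl 3 (adjusted p = 0.0545) or without gastrocnemius Ctrl 2 (0.0515), nor with soleus Ctrl 2 alone (0.189).

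In the citrate cycle and the oxidation of pyruvate and branched-chain acids, 23 of 36 genes were higher and 3 lower. With median-ratio scaling this was 10 higher and 7 lower, and soleus Ctrl 2 alone gave 15 higher and 2 lower. Idh2, the mitochondrial NADP-dependent isocitrate dehydrogenase, stood apart at 737, 848 and 799 TPM in soleus, against 124, 135 and 127 TPM in gastrocnemius (log2 fold change 2.61, SE 0.0822, adjusted p = 1.87e-06). Cs, citrate synthase, was higher by only 0.36 and was not past the test with median-ratio scaling (0.16, adjusted p = 0.171). Pdk4, which inhibits pyruvate dehydrogenase, was at 602, 653 and 525 TPM in soleus, against 164, 195 and 253 TPM in gastrocnemius (log2 fold change 1.55, SE 0.160, adjusted p = 0.000298). Idh3a, a subunit of the NAD-dependent isocitrate dehydrogenase, was lower at 274, 287 and 243 TPM in soleus, against 408, 399 and 359.6 TPM in gastrocnemius.

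Glycolysis and glycogen genes all passed the test, 25 of 38 lower and 13 higher in soleus (median -1.29). The lower ones covered glycogen breakdown and the path to lactate. Pygm, muscle glycogen phosphorylase, was at 1021, 968 and 1164 TPM in soleus, against 3949, 4057 and 3505 TPM in gastrocnemius, and its kinase subunits Phkg1 and Phkb were lower at -2.55 and -2.21. Gapdh, which has many pseudogene copies, and Pkm, enzymes of the lower pathway, stood at -1.28 and -1.23, and Pfkm, the main rate-controlling enzyme, at -0.83 (adjusted p = 3.97e-05, 8.91e-05 and 0.000131 by limma). Pfkfb3, which makes the activator fructose 2,6-bisphosphate, was at 5.48, 3.19 and 6.02 TPM in soleus, against 45.4, 59.7 and 98.3 TPM in gastrocnemius. Gpd2, the mitochondrial enzyme of the glycerol phosphate shuttle, was at 5.63, 4.6001 and 5.52 TPM in soleus, against 78.9, 72.1 and 73.0 TPM in gastrocnemius. In both, gastrocnemius exceeded every soleus library at least 7-fold.

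The higher members included genes of glucose entry, glycogen synthesis and lactate use. Gys1, glycogen synthase, stood at 0.60, and Slc2a4, the insulin-responsive glucose carrier GLUT4, at 0.38 (adjusted p = 0.00556 and 0.0103 by limma). Neither passed with quantile normalization (adjusted p = 0.0901 for Gys1 and 0.34 for Slc2a4), and Slc2a4 did not with median-ratio scaling (0.17, adjusted p = 0.161). Ldhb, the lactate dehydrogenase subunit of oxidative tissue, was at 713, 858 and 760.1 TPM in soleus, against 101, 108 and 90.6 TPM in gastrocnemius, and Ldha, the subunit of glycolytic tissue, at 732, 698 and 793 TPM in soleus, against 2527, 2559 and 2641 TPM in gastrocnemius. Of the pair, Ldhb made up 51.1 ± 3.47% in soleus and 3.74 ± 0.381% in gastrocnemius (SD, n = 3, exact permutation p = 0.1). Slc16a1, the lactate importer MCT1, was at 29.9, 29.3 and 34.9 TPM in soleus, against 9.32, 9.85 and 8.81 TPM in gastrocnemius, and Slc16a3, the exporter MCT4, at 61.9, 36.3 and 54.6 TPM in soleus, against 200.3, 213 and 225 TPM in gastrocnemius. The lactate carriers thus moved in opposite directions (1.64 and -2.07, adjusted p = 2.58e-05 and 0.000138). Hk2, the muscle hexokinase, was higher at 1.23 (adjusted p = 0.00238).

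Of 14 genes for myoglobin, phosphagens and purine nucleotides, 7 were higher and 5 lower in soleus. Mb, the oxygen store myoglobin, was at 8644, 8814 and 7328 TPM in soleus, against 1441, 1505 and 1275 TPM in gastrocnemius (log2 fold change 2.55, SE 0.108, adjusted p = 5.37e-06). Ckm, cytosolic creatine kinase and one of the most abundant transcripts, was at 10450.0, 11999.8 and 11375 TPM in soleus, against 32865, 32496 and 33575 TPM in gastrocnemius. Ampd1, the muscle AMP deaminase, was at 239, 332 and 324 TPM in soleus, against 1143, 1104 and 1132 TPM in gastrocnemius, while Ampd3, its isoform outside fast muscle, was higher at 1.82 (adjusted p = 0.000132 by limma).

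**Figure D3:**
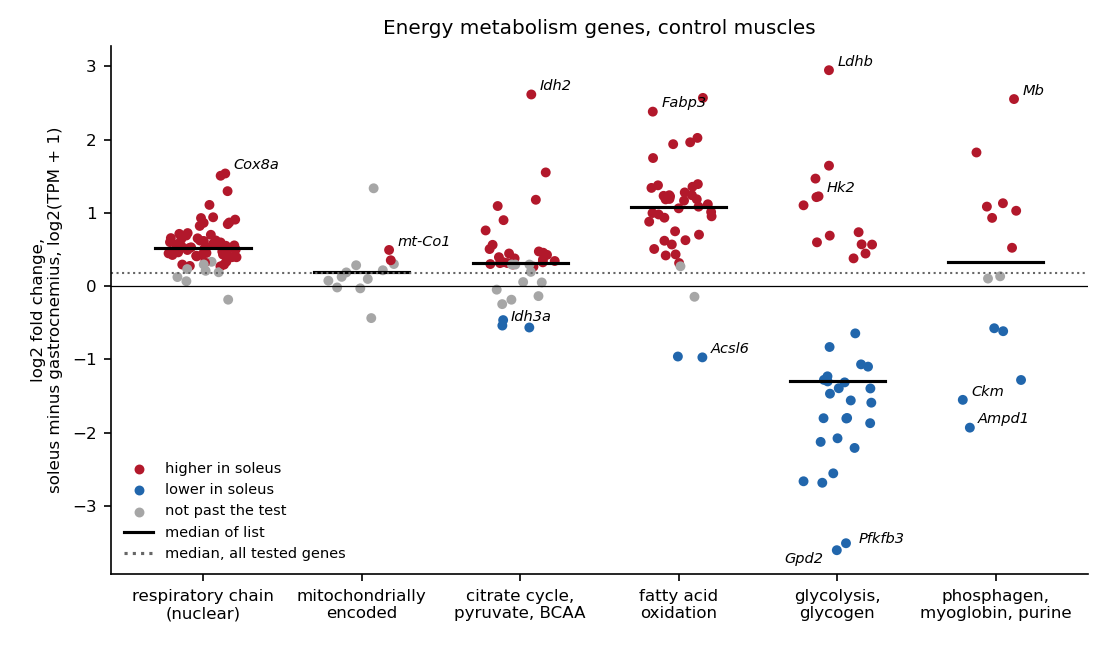
Points are log2 fold changes (soleus minus gastrocnemius) of the tested genes of 6 metabolic lists, red where higher, blue where lower and grey where not past the test; bars mark list medians and the dotted line the median of all genes, 0.186. The fatty acid list has a median of 1.08 and the glycolytic list of -1.29, with Ldhb at 2.95 among the exceptions.

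Among growth genes, a few differed widely. Mstn, myostatin, the secreted inhibitor of muscle growth, was at 0.459, 0.228 and 0.237 TPM in soleus, against 38.7, 29.6 and 32.0 TPM in gastrocnemius. Soleus was below 1 TPM throughout (log2 fold change -4.71, SE 0.133, adjusted p = 1.12e-06). Deptor, an inhibitor of mTOR, was lower at -2.11, and Irs2, an insulin receptor substrate, higher at 2.20 (adjusted p = 7.52e-06 and 0.000621). Of the 27 growth genes tested, 8 were higher and 3 lower in soleus, shares close to the 31.4% and 10.2% of all genes. Median-ratio scaling gave 7 higher and 7 lower, and soleus Ctrl 2 alone 4 higher and 3 lower. Of 15 developmental muscle genes, 8 were higher and 3 lower in soleus. Median-ratio scaling gave 8 higher and 5 lower. Myh3, the embryonic myosin heavy chain, was at 17.6, 14.5 and 19.5 TPM in soleus, against 1.43, 1.57 and 1.06 TPM in gastrocnemius, and Myh8, the perinatal chain, at 7.39, 11.3 and 27.5 TPM in soleus, against 1.20, 1.45 and 1.43 TPM in gastrocnemius. Both were minor beside the adult chains. Actc1, cardiac alpha-actin, which skeletal muscle makes early in life, was at 105, 148 and 196 TPM in soleus, against 8028, 5615 and 7565 TPM in gastrocnemius, so the developmental genes did not share a direction (2.95, 2.60 and -5.58). Actc1 is nearly identical in sequence to the abundant skeletal actin Acta1, so its values are uncertain.

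Of 19 neuromuscular junction genes, 10 were higher and 2 lower in soleus. Median-ratio scaling gave 6 higher and 2 lower, and soleus Ctrl 2 alone 6 higher and 2 lower. Chrnd, the delta subunit of the acetylcholine receptor, was at 4.80, 4.31 and 6.26 TPM in soleus, against 1.45, 1.73 and 1.94 TPM in gastrocnemius, and Chrne, the adult epsilon subunit, at 10.6, 9.01 and 11.9 TPM in soleus, against 19.9, 22.04 and 20.3 TPM in gastrocnemius. Colq, which anchors acetylcholinesterase, was higher at 1.25, and Ache, the esterase itself, lower at -0.85 (adjusted p = 0.00139 and 0.00237 by limma). Of 19 satellite cell and myogenic genes, 9 were higher and 1 lower in soleus. Median-ratio scaling gave 8 higher and 3 lower, and soleus Ctrl 2 alone 4 higher and 1 lower. Myf5, a myogenic factor of satellite cells, was at 3.38, 4.10 and 4.10 TPM in soleus, against 1.95, 2.06 and 1.88 TPM in gastrocnemius, and Myf6, the factor of mature fibres, at 67.4, 71.9 and 57.5 TPM in soleus, against 119.9, 104 and 96.9 TPM in gastrocnemius. Pax7, which defines satellite cells, was not past the test (0.36, adjusted p = 0.0956), but passed after rescaling over protein-coding nuclear genes (0.47, adjusted p = 0.0378).

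Of 49 Hox and limb patterning genes, 32 passed the expression filter, and 13 were higher and 7 lower in soleus. Median-ratio scaling gave 9 higher and 10 lower, and soleus Ctrl 2 alone 4 higher and 7 lower. Hoxd8, Hoxd9 and Hoxd10, neighbours in the HoxD cluster, were all lower. Hoxd8 was at 8.61, 8.83 and 10.9 TPM in soleus, against 22.7, 25.2 and 19.6 TPM in gastrocnemius, Hoxd9 at 3.70, 2.46 and 5.41 TPM in soleus, against 10.3, 10.4 and 9.98 TPM in gastrocnemius, and Hoxd10 at 0.625, 0.678 and 1.16 TPM in soleus, against 3.80, 3.52 and 4.09 TPM in gastrocnemius. Six2, a homeobox factor of limb connective tissue, was also lower at 0.828, 0.454 and 0.862 TPM in soleus, against 6.58, 5.46 and 5.25 TPM in gastrocnemius. Barx2, a homeobox factor, was higher at 14.7, 21.1 and 26.2 TPM in soleus, against 3.56, 6.63 and 4.95 TPM in gastrocnemius (log2 fold change 1.84, SE 0.243, adjusted p = 0.000949 by limma).

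Of 24 heat shock genes, 18 were higher and 0 lower in soleus (median 0.79), and 6 did not pass the test, against a background of 31.4% higher. Hspb7, a small heat shock protein of heart and muscle, was at 973, 709 and 767 TPM in soleus, against 90.9, 97.9 and 85.6 TPM in gastrocnemius, and Hspb6 at 1649, 1612 and 1442 TPM in soleus, against 511, 467 and 520.3 TPM in gastrocnemius. Cryab, the small heat shock protein alpha B-crystallin, was higher at 1.92. Hspa1a, inducible HSP70, was at 55.9, 56.4 and 62.9 TPM in soleus, against 4.76, 7.23 and 3.03 TPM in gastrocnemius (log2 fold change 3.36, SE 0.232, adjusted p = 4.84e-05), though its near-identical copy Hspa1b can share its reads. Of 19 immediate early genes, 10 were higher and 0 lower in soleus, and 9 did not pass the test. Atf3, a stress-induced transcription factor, was at 97.6, 87.7 and 84.3 TPM in soleus, against 5.75, 7.82 and 6.58 TPM in gastrocnemius, and Fos, an AP-1 factor, at 13.5, 18.2 and 13.5 TPM in soleus, against 2.11, 3.04 and 3.39 TPM in gastrocnemius. Jun stood at 1.56 (adjusted p = 0.000699).

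Of 25 dystrophin complex and basement membrane genes, 13 were higher and 3 lower in soleus. Median-ratio scaling gave 5 higher and 3 lower, and soleus Ctrl 2 alone 6 higher and 3 lower. Col4a2, a basement membrane collagen, was at 123, 94.4 and 111 TPM in soleus, against 60.7, 58.2 and 56.4 TPM in gastrocnemius, and Nos1, the muscle nitric oxide synthase held at dystrophin, at 2.06, 1.48 and 1.08 TPM in soleus, against 4.404, 3.99 and 6.398 TPM in gastrocnemius. Of 75 cytosolic ribosomal protein genes, 17 were higher and none lower, below the background of 31.4%. Their direction depended on scaling: median-ratio scaling gave 6 higher and 9 lower, quantile normalization 5 and 23. Soleus Ctrl 2 alone gave 4 higher and none lower. Rpl29 had the widest difference, at 12.6, 191 and 199 TPM in soleus, against 3.67, 2.07 and 3.19 TPM in gastrocnemius, with soleus Ctrl 1 far below the other soleus libraries. Ribosomal protein genes have many pseudogene copies that can take their reads, so these values are uncertain.

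Markers of cells other than fibres were measured in the same libraries, and in bulk RNA fewer cells of a type and less RNA per cell cannot be told apart. Of 15 endothelial markers, 13 were higher and none lower (median 0.74). Pecam1, an endothelial adhesion molecule, was at 79.3, 69.5 and 68.7 TPM in soleus, against 42.3, 38.3 and 36.7 TPM in gastrocnemius, and Kdr, the VEGF receptor, at 20.8, 21.5 and 18.6 TPM in soleus, against 9.16, 8.72 and 11.1 TPM in gastrocnemius. The summed level of the list was 714 to 809 TPM in soleus and 460.3 to 495 TPM in gastrocnemius, without overlap. Of 13 smooth muscle and pericyte markers, 10 were higher and 1 lower in soleus, with sums of 1796 to 1942 TPM in soleus and 1282 to 1333 TPM in gastrocnemius. Median-ratio scaling left 6 of them higher and soleus Ctrl 2 alone 4. Abcc9, the lower one, also encodes a channel subunit of muscle fibres (-0.77). The smooth muscle and pericyte list also holds Des, which is among the muscle fibre markers too. Its sums are therefore not those of smooth muscle and pericytes alone, and the part of Des in them was not tested.

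The muscle fibre markers themselves summed to 58968 to 65085 TPM in soleus and 78686 to 80806 TPM in gastrocnemius. Yet of these 7 markers, 3 were higher and 2 lower in soleus (median 0.132). The list holds Ckm, which is highly abundant and lower in soleus. Its sum is therefore not a measure of fibre content alone, and the part of Ckm in it was not tested. Sums of the fibroblast, adipocyte, tendon, macrophage, Schwann cell and erythroid lists overlapped between the muscles. Of 20 fibroblast markers, 3 were higher and 1 lower in soleus, with sums of 1789 to 3957 TPM in soleus and 2137 to 3870.2 TPM in gastrocnemius. Soleus Ctrl 2 was the low end of that range, and alone it gave 1 higher and 10 lower. Of 10 adipocyte markers tested, 5 were higher, and none with soleus Ctrl 2 alone. Cfd, the adipocyte protease adipsin, was at 106, 45.7 and 74.6 TPM in soleus, against 16.7, 35.1 and 22.3 TPM in gastrocnemius. Soleus Ctrl 2 was the lowest soleus library there, and the adipocyte list summed to 2608 to 3654 TPM in soleus and 2163 to 2919 TPM in gastrocnemius. Of 12 macrophage markers, 0 were higher and 1 lower in soleus (3 lower with median-ratio scaling and 7 with soleus Ctrl 2 alone), with sums of 52.1 to 111 TPM in soleus and 89.7 to 131 TPM in gastrocnemius. Of 12 tendon markers, 1 was higher, and of 11 Schwann cell markers, 1, both below the background of 31.4%. The tendon call, Scx, was not made with soleus Ctrl 2 alone (log2 fold change 0.997), and the Schwann cell marker, Dhh, was not tested there. Dhh lost its call with the GC and length correction and with the processed pseudogene covariate. It also did so without soleus Ctrl 3 or gastrocnemius Ctrl 1 or 2 (adjusted p = 0.0506 to 0.0532 by limma). None of the 5 erythroid genes tested passed the test. The lymphocyte list summed to 20.8 to 42.8 TPM in soleus and 50.05 to 94.1 TPM in gastrocnemius, without overlap. A mean of 1 TPM was reached by 4 of its 15 genes, of which 0 were higher, 1 was lower and 3 did not pass the test. The lower one was Ighm, the heavy chain of IgM. It was at 3.38, 1.90 and 4.29 TPM in soleus, against 51.3, 49.3 and 27.8 TPM in gastrocnemius (log2 fold change -3.38, SE 0.285, adjusted p = 0.000118). Ighm alone thus held a large part of the gastrocnemius sum. The part of these markers in the differences of other gene groups was not tested. None of the markers in these lists was at 0 in all 6 libraries.

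**Figure D4:**
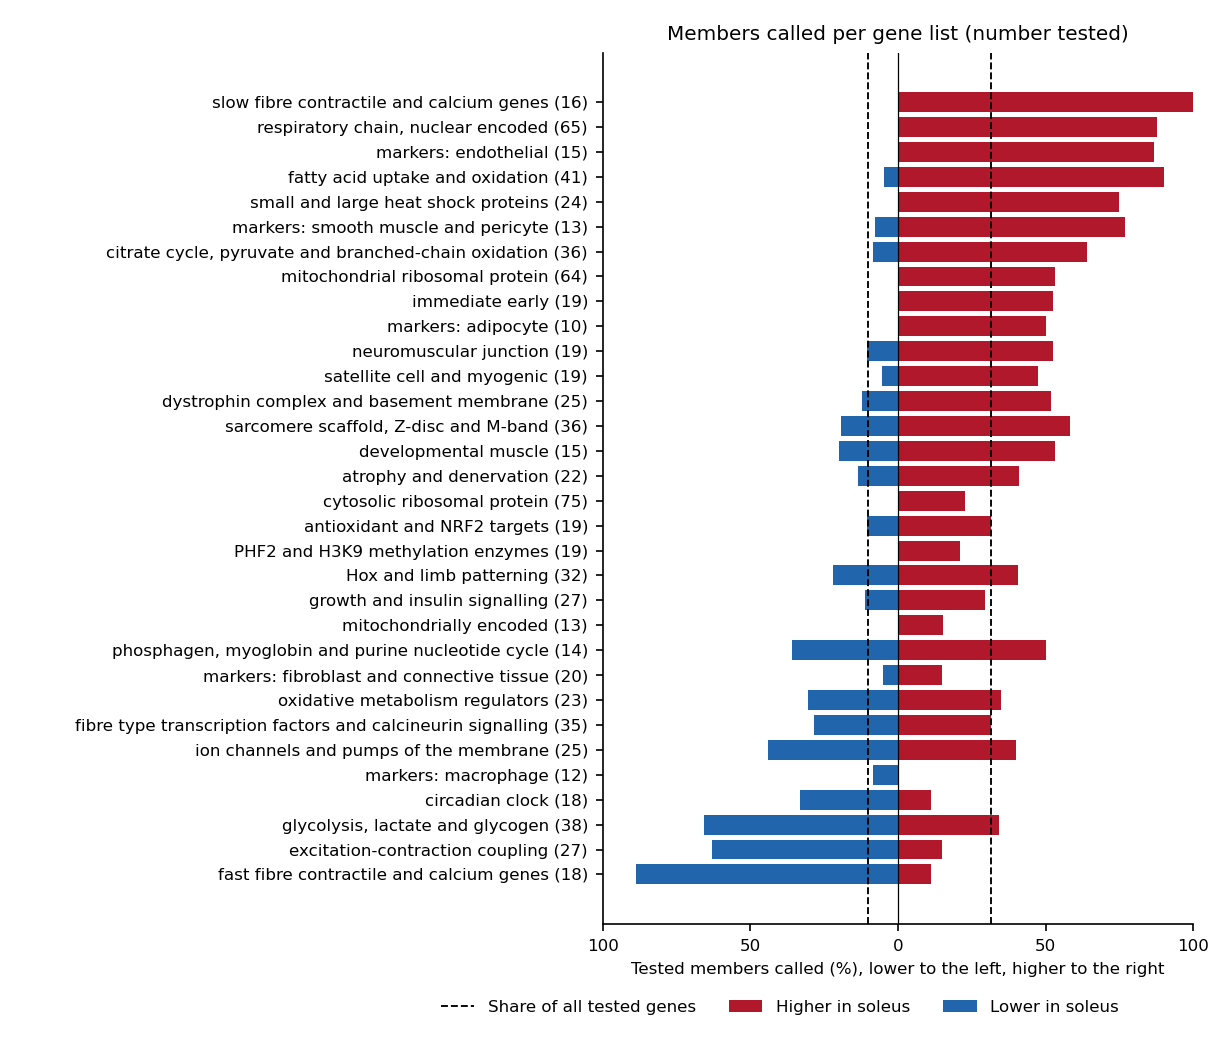
Bars give the percent of tested members of the gene lists shown that were higher (red, to the right) or lower (blue, to the left) in soleus, with the number tested in brackets; dashed lines mark the share of all genes, 31.4% higher and 10.2% lower. Slow fibre genes reach 100% higher, and fast fibre, excitation-contraction and glycolytic genes have the largest lower shares.

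The largest differences included genes outside these groups. Mybph, a myosin-binding protein of the thick filament, was at 4.11, 3.06 and 5.63 TPM in soleus, against 402, 497 and 521 TPM in gastrocnemius, and Mybpc2, the fast myosin-binding protein C, at 76.5, 68.9 and 113 TPM in soleus, against 2501, 2394 and 2565 TPM in gastrocnemius. Both were lower in soleus by over 4 on the log2 scale (-6.51 and -4.87). Tspan8, a tetraspanin, was at 1.19, 0.666 and 1.32 TPM in soleus, against 59.7, 57.0 and 55.3 TPM in gastrocnemius. Cdh4, a cadherin, was at 0.205, 0.440 and 0.250 TPM in soleus, against 13.1, 26.4 and 14.1 TPM in gastrocnemius. Gpt2, mitochondrial alanine aminotransferase, was at 9.64, 8.66 and 12.2 TPM in soleus, against 193, 188 and 151 TPM in gastrocnemius. Gastrocnemius stood above soleus in every library for these genes (-4.84, -3.80 and -4.002, adjusted p = 1.12e-06, 3.64e-05 and 2.86e-06 by limma). On the higher side, Myl6b, a slow alkali light chain, was at 367, 594 and 467 TPM in soleus, against 8.13, 7.27 and 11.4 TPM in gastrocnemius, Myh7b, a slow tonic myosin, at 48.4, 36.2 and 54.2 TPM in soleus, against 1.29, 0.915 and 1.16 TPM in gastrocnemius, and Myoz2, a calcineurin-binding Z-disc protein of slow fibres, at 1266, 1388 and 1427 TPM in soleus, against 92.5, 105 and 85.5 TPM in gastrocnemius.

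The same muscles were compared in Phf2 knockout mice, whose 6 libraries share none with the control comparison. Phf2 itself was at 14.03, 10.002 and 14.98 TPM in soleus, against 9.996, 11.4 and 8.24 TPM in gastrocnemius in control mice (log2 fold change 0.36, SE 0.170, adjusted p = 0.130), and at 8.11, 9.06 and 6.79 TPM in knockout soleus, against 6.74, 7.61 and 7.003 TPM in knockout gastrocnemius. Within each muscle, the knockout libraries lay below the control libraries. The control muscles did not differ past the test, and the size of the Phf2 difference depended on the setting. Without soleus Ctrl 2 its log2 fold change was 0.52 (adjusted p = 0.0235 by limma), and with soleus Ctrl 2 alone 0.03. It was 0.17 with median-ratio scaling (adjusted p = 0.384) and 0.06 with the GC and length correction (adjusted p = 0.739). With the processed pseudogene covariate it was 0.13 (adjusted p = 0.662). Knockout soleus was higher in 2658 of 12135 genes (21.9%) and lower in 949 (7.82%). Rescaling over protein-coding nuclear genes gave 5870 higher and 648 lower, so the shares called in the knockout depend on the scaling. Of the 3782 genes higher in control soleus, 88.3% were also positive in the knockout and 45.4% were called there. Of the 1232 lower genes, 86.9% were negative in the knockout and 53.6% were called. Across the 12048 genes, whose effects within a genotype share their libraries, Pearson's r of the control and knockout effects was 0.774, as a description. All 16 slow genes were called higher and 16 fast genes lower in the knockout as well. Of the respiratory chain genes, 24 of 65 were called higher there, and of the fatty acid genes 31 of 41. Mitochondrially encoded transcripts took 26.1, 28.3 and 39.0% of TPM in knockout soleus, against 18.1, 20.7 and 20.3% in knockout gastrocnemius. The part of this share in the knockout counts was not tested. Cytosolic ribosomal genes were called higher in 1 of 75. Gm12338 was in 1 of 3 soleus and all 3 gastrocnemius knockout libraries, so that library difference lay the other way round.

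The difference between the control and knockout muscle effects, tested for each gene over all 12 libraries, passed at an adjusted p under 0.05 by limma in 33 of 12091 genes (0.273%), 14 positive and 19 negative. At an unadjusted p under 0.05 there were 2497. Rescaling over protein-coding nuclear genes left 19 called genes, and a pseudocount of 0.1 left 14. Casq2 was at 204, 263 and 268 TPM in knockout soleus, against 52.0, 78.7 and 71.9 TPM in knockout gastrocnemius. Its muscle effect was 3.28 in control and 1.85 in knockout mice, a difference of 1.43 (SE 0.252, adjusted p = 0.0495). Cntnap2, a neurexin-related membrane protein, was at 0.152, 0.129 and 0.268 TPM in soleus, against 11.0, 10.2 and 10.6 TPM in gastrocnemius of control mice, and at 0.135, 0.315 and 0.165 TPM in knockout soleus, against 2.77, 2.21 and 3.00 TPM in knockout gastrocnemius. The control gap was the wider one, with a difference of -1.69 (SE 0.156, adjusted p = 0.00276). Xpr1, a phosphate exporter, was at 4.19, 4.06 and 4.25 TPM in soleus, against 12.7, 10.2 and 11.7 TPM in gastrocnemius of control mice, and at 4.92, 4.62 and 5.52 TPM in knockout soleus, against 6.20, 5.38 and 6.13 TPM in knockout gastrocnemius. Its soleus and gastrocnemius levels overlapped in the knockout, with a difference of -1.08 (SE 0.141, adjusted p = 0.0193). Myh7, Myh4, Myh2 and Myh1 were not among the genes whose muscle effect differed past the test.

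**Figure D5:**
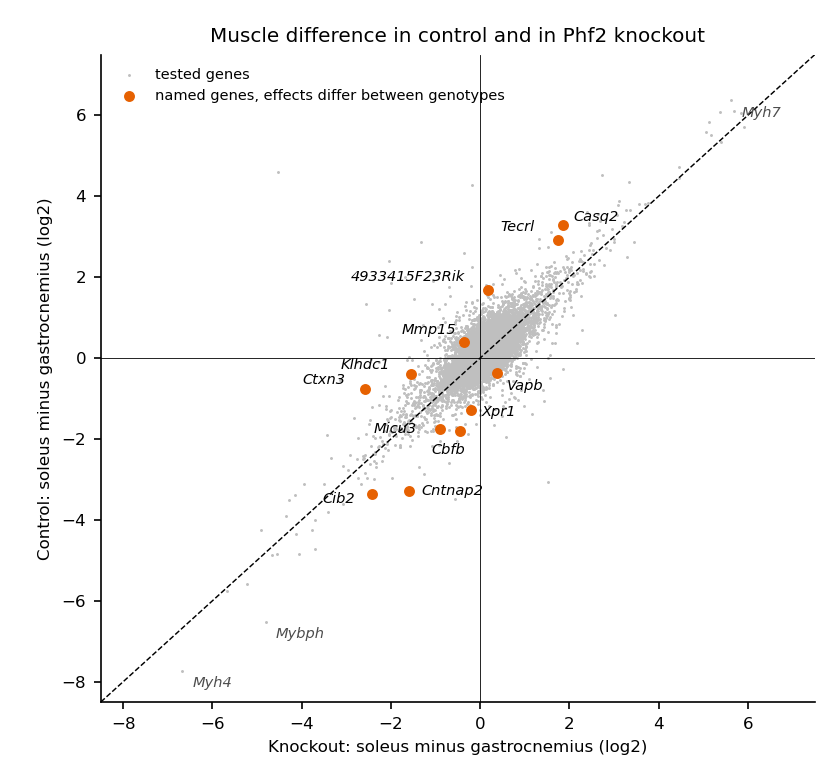
Each point is a gene, with its log2 soleus minus gastrocnemius difference in control mice on the vertical axis and in Phf2 knockout mice on the horizontal axis; the dashed line marks equal effects, and orange points are the 12 named genes whose effects differ by limma. Myh7 and Myh4 lie at opposite ends of the cloud, and Casq2 lies above the line at 3.28 in control and 1.85 in knockout mice.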

How the data were processed

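Per the labels' protocols, RNA came from RNAiso and NucleoSpin preparations, and a NEBNext Ultra II directional kit gave the libraries. The authors deposited TPM, 1 table for each muscle, and every column sums to 1000000. The submitters' processing notes name the build mm10. Aligner, quantifier, depth and how strand and shared reads were handled: not given in the sources used here. The tables were joined on gene ID, and 34652 of 34866 IDs matched GENCODE M21. For genes averaging 1 TPM or more in the libraries compared, log2(TPM + 1) entered limma 3.58.1 (R 4.3.3), with a trend and two-sided moderated tests, adjusted by Benjamini-Hochberg over all genes tested. Shares were tested by exact permutation (scipy 1.17.1), 19 in all; adjusted over them, no p was under 0.112. The pipeline was tested on simulated data.

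The comparison, the gene lists and the rule for named genes were chosen with earlier results of these data known. The rule named fibre-type isoforms and the 15 largest differences in each direction among called protein-coding genes whose groups did not overlap. Predicted genes were passed over among the largest differences. It also named up to 4 called members of smallest p for each list, and members that went against their list. For control minus knockout it named up to 5 genes in each direction. A further 33 list members were named for their role after their values were seen. Some genes that the rule named are not reported here. In all, 22 alternative settings were run.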

Additional observations from a re-analysis of the deposited data

Results flagged for a closer look

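The muscle difference itself differed between control and knockout mice, by the limma test of the difference over 12 libraries, in 12 named genes. They are among 33 genes called, a count that was 19 after rescaling over protein-coding nuclear genes and 14 with a pseudocount of 0.1, and Casq2 lay close to the threshold. The values are log2 differences, control minus knockout. Positive ones were 1.43 (SE 0.252, adjusted p = 0.0495) for Casq2, the slow calsequestrin; 1.82 (SE 0.221, adjusted p = 0.0193) for Ctxn3; 1.52 (SE 0.194, adjusted p = 0.0193) for 4933415F23Rik; 1.17 (SE 0.178, adjusted p = 0.0353) for Tecrl; 1.16 (SE 0.151, adjusted p = 0.0193) for Klhdc1; and 0.76 (SE 0.116, adjusted p = 0.0363) for Mmp15, a membrane-type matrix metalloproteinase. Negative ones were -1.69 (SE 0.156, adjusted p = 0.00276) for Cntnap2; -1.35 (SE 0.181, adjusted p = 0.0215) for Cbfb, the partner subunit of RUNX factors; -1.08 (SE 0.141, adjusted p = 0.0193) for Xpr1; -0.95 (SE 0.153, adjusted p = 0.0392) for Cib2; -0.86 (SE 0.121, adjusted p = 0.0258) for Micu3, a regulator of the mitochondrial calcium uniporter; and -0.75 (SE 0.107, adjusted p = 0.0279) for Vapb, a protein of the endoplasmic reticulum. In Cbfb the muscle effect was -1.79 in control and -0.45 in knockout mice. Ctxn3 was lower in soleus in both genotypes, at -0.76 in control and -2.57 in knockout mice. Mmp15 and Vapb had opposite signs in the genotypes, at 0.39 and -0.38 in control and -0.36 and 0.37 in knockout mice. The control effect of Mmp15 depended on scaling. It was 0.20 with median-ratio scaling (adjusted p = 0.0693 by limma) and 0.06 with the GC and length correction (adjusted p = 0.601). The distribution of Gm12338 over the libraries moved with this contrast, since it was listed above 0 in soleus Ctrl 1 and 3, soleus KO 2 and all gastrocnemius KO libraries, and its part in these differences was not tested.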

How the results depend on the processing

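Of 4879 values of 223 named genes under the 22 alternatives, 4689 kept their direction and side of the threshold, 185 lost the call, 3 gained one and 2 reversed: Tnnc2 at 0.0297 with quantile normalization and Ehmt2 at -0.0224 with the GC and length correction. The 30 largest differences, chosen among genes called in the main fit whose groups did not overlap, were called in every alternative. Their choice from the same libraries favoured this result, so it is not separate evidence. The count of genes higher in soleus, 3782, was 2340 with median-ratio scaling, 2268 with quantile normalization, 2286 with the GC and length correction, 2243 with a processed pseudogene covariate and 1745 with soleus Ctrl 2 alone, which has fewer samples and is assumed to vary like gastrocnemius. The count of lower genes, 1232, was 2251, 2370 and 2301 under the first 3 of these. Leaving out 1 library gave 2800 to 4095 higher and 914 to 1145 lower genes. Deviations of equally numbered muscles correlated at 0.208, -0.129 and -0.00148, above 0.1 in 1 of 3 pairs, so no pairing was assumed; the replicate block gave 3352 higher and 1079 lower genes. Rescaling over protein-coding nuclear genes gave 5870 genes higher in knockout soleus, against 2658. For the control minus knockout difference, it gave 19 called genes and a pseudocount of 0.1 gave 14, against 33. Except where a setting uses fewer samples, the cause was not tested. TPM keeps no depth, so the counting error of genes with low values is unknown.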

Other observations

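Of 18 circadian clock genes, 2 were higher and 6 lower in soleus, against 31.4% higher and 10.2% lower among all genes. Median-ratio scaling gave 0 higher and 7 lower, and soleus Ctrl 2 alone 1 higher and 3 lower. The lower ones included the PAR bZIP factors Dbp, Tef and Hlf, which follow the clock's output. Tef was at 74.3, 84.1 and 82.3 TPM in soleus, against 135, 150.1 and 164 TPM in gastrocnemius, and Hlf at 1.36, 1.78 and 1.87 TPM in soleus, against 3.63, 4.99 and 4.22 TPM in gastrocnemius. These groups did not overlap (-0.89 and -0.98, adjusted p = 0.000392 and 0.00133 by limma), and the hour of collection is not given in the sources used here.

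Of 22 atrophy and denervation genes, 9 were higher and 3 lower in soleus, beside the 31.4% and 10.2% of all genes. The GC and length correction gave 7 higher and 5 lower. Gadd45a, a gene induced by denervation, was at 8.17, 7.403 and 10.3 TPM in soleus, against 37.0, 40.5 and 50.2 TPM in gastrocnemius, and Trim63, the ubiquitin ligase MuRF1, at 181, 208 and 193 TPM in soleus, against 107, 105 and 109 TPM in gastrocnemius. Of 19 antioxidant genes, 6 were higher and 2 lower in soleus, shares close to the 31.4% and 10.2% of all genes. Median-ratio scaling gave 4 higher and 4 lower. Cat, the peroxide-degrading enzyme catalase, was at 107, 88.8 and 89.9 TPM in soleus, against 41.2, 41.1 and 36.1 TPM in gastrocnemius. Of 19 PHF2-related and H3K9 methylation enzymes, 4 were higher and none lower, below the background of 31.4%. Median-ratio scaling gave 2 higher and 2 lower. Kdm4a, an H3K9 demethylase, was at 20.3, 15.4 and 17.6 TPM in soleus, against 8.78, 9.66 and 9.38 TPM in gastrocnemius (log2 fold change 0.86, SE 0.114, adjusted p = 0.000991).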
